A study of Mus musculus with 4 samples.

Results

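Conventional CD4 T cells were taken from single-cell RNA libraries of mouse fibrosarcomas by a rule on raw counts of unique molecular identifiers (UMIs, each a captured transcript). A cell needed at least 200 genes and at most 10% mitochondrial UMIs, at least 2 UMIs of Cd3d, Cd3e and Cd3g together (subunits of the T cell receptor complex), at least 1 UMI of Cd4, no UMI of Cd8a, Cd8b1, Foxp3, Il13, Il5, Klra1, Klra6 or Klra7, at most 1 UMI of the proliferation genes Mki67 and Top2a and at most 3 UMIs of the macrophage genes C1qa, C1qb and C1qc. The members were chosen by these UMI counts in the same cells, so no level of a gene in the rule is a result. The rule found 1038 cells among 27705 that passed the cell filter, of 30504 barcodes. There were 346 and 249 such cells in the 2 Raldh1/3 DKO libraries, against 236 and 207 in the 2 Cas9 Control libraries.

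The tumours were grown from cells lacking both Raldh1 and Raldh3 (DKO) or from Cas9 control cells, were left untreated and were taken on day 11 after implantation. Raldh1 and Raldh3, whose genes are Aldh1a1 and Aldh1a3, make retinoic acid from retinal. Live CD45+ cells were sorted by flow cytometry, each library pooled 2 tumours, and 4 tumours stood behind each group. The labels give neither mouse strain, sex, age nor the number of tumour clones. The deletion was in the implanted cells, which a CD45+ sort leaves out, so these libraries could not check it: Aldh1a3 had 13 and 25 UMIs over all DKO cells, against 29 and 9 over all control cells, and 0 UMIs in the CD4 cells of every library.

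CD4 T cells recognise antigen on major histocompatibility complex class II and help other immune cells through secreted cytokines and surface ligands. Signalling through their antigen receptor switches on immediate transcription factors of the Nr4a, Egr and Irf families. RANKL (encoded by Tnfsf11) acts on myeloid cells and osteoclast precursors, GM-CSF (Csf2) acts on myeloid cells, and CD40 ligand (Cd40lg) licenses dendritic cells and B cells. Retinoic acid is known in CD4 T cells for shaping gut homing and the balance of regulatory and inflammatory fates.

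The CD4 cells held 1811316 and 1519147 UMIs in the DKO libraries, against 1159793 and 1082084 in the control libraries. The median UMI count per cell was 4809.5 and 5629 in DKO, against 4406 and 4706 in control, so DKO cells were the deeper ones in both libraries. Counts were summed over the cells of a library and are given as CPM (counts scaled to the same total in every library), with the library as the replicate. A count of 3 UMIs, the limit that a count of 0 allows, was 1.66 and 1.97 CPM in DKO, against 2.59 and 2.77 CPM in control. No barcode of a CD4 cell was shared between libraries. Correlations of the libraries' levels over genes were between 0.951 and 0.974, and no library stood apart. The p-values of DKO over control rest on the spread between libraries, each a pool of tumours. Those of the class-by-group terms below do not. There the library is a block, and they rest on how the difference between 2 gates varied among libraries. In both tests edgeR pools the spread over genes. A very small p therefore does not measure how closely the libraries agreed for that gene.

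The label was checked against its markers, whose values the rule partly fixed and which are given as a description. Cd4, the coreceptor the rule required, had 814 and 765 CPM in DKO CD4 cells, against 677 and 603 CPM in control CD4 cells. Tnfsf11 was not used by the rule and had 194 and 155 CPM in DKO CD4 cells, against 138 and 126 CPM in control CD4 cells. In the 1539 CD8 T cells (at least 1 Cd8a or Cd8b1 UMI, no Cd4) the same gene was at 20.4 and 17.7 CPM in DKO and at 11.0 and 12.5 CPM in control. In the 442 Foxp3+ T cells it was at 34.5 and 14.6 CPM in DKO and at 22.4 and 15.1 CPM in control. Every CD4 library thus lay above every library of the other gates, as the plot of ligand transcripts shows. The 20 markers of regulatory T cells, of which 19 were in the files, summed to 4027 and 3478 CPM in DKO CD4 cells, against 3557 and 3647 CPM in control CD4 cells, while Foxp3+ cells of the 4 libraries lay between 13430 and 15669 CPM. Il17a had 0 UMIs in every CD4 library.

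At the edges of the rule, 60 and 46 DKO cells, against 51 and 54 control cells, were kept with exactly 1 Cd4 UMI. Another 134 and 148 DKO cells, against 202 and 147 control cells, met every other criterion with no Cd4 UMI and were left out. With exactly 1 Foxp3 UMI, 14 and 5 DKO cells, against 15 and 9 control cells, were left out.

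**Figure D1:**
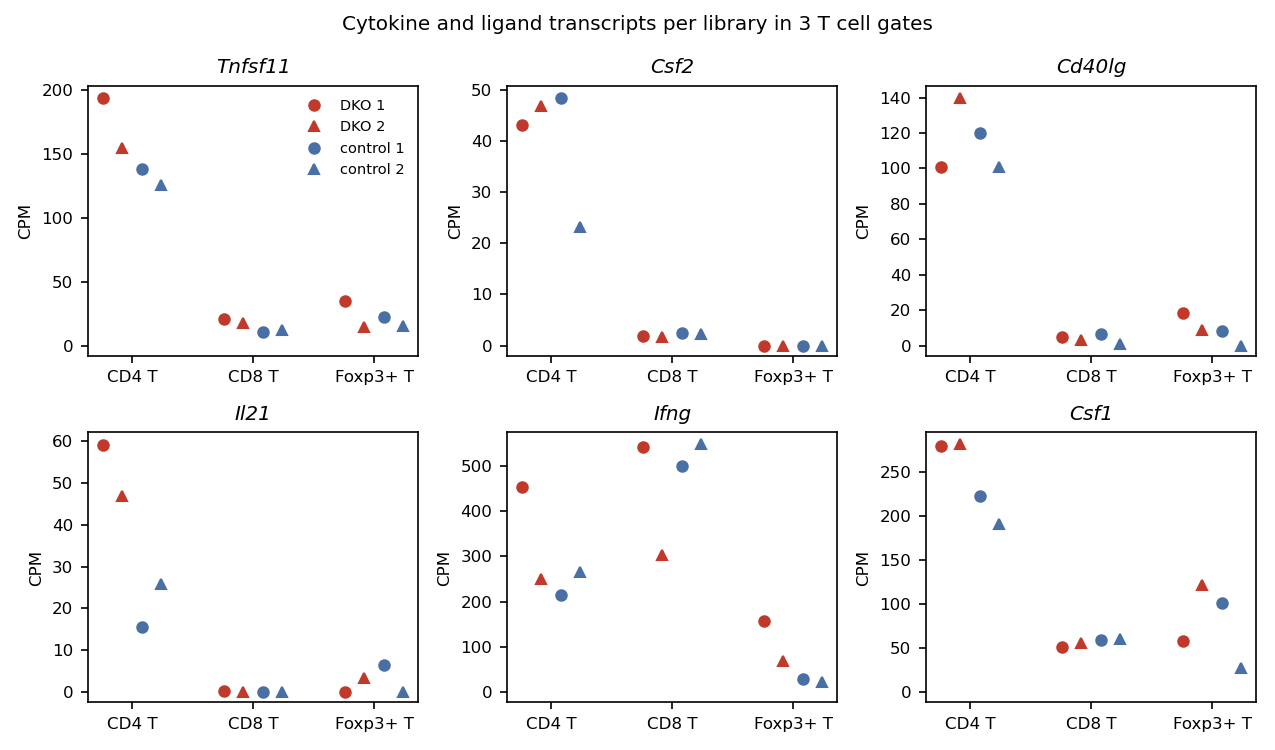
Level of 6 ligand and cytokine transcripts (vertical axis, CPM, linear) in conventional CD4, CD8 and Foxp3+ T cells, 1 point per library, DKO in red and control in blue. Tnfsf11, Csf2 and Cd40lg were higher in all 4 CD4 libraries than in any other library, and Il21 was at 59.1 and 46.7 CPM in DKO CD4 cells, against 15.5 and 25.9 CPM in control CD4 cells.

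Clustering of the 1038 cells gave 8 groups, named here by their leading genes, which are a description of the same cells. A cluster of 262 cells was led by Cd200, Tg and Tnfsf8, and one of 243 cells by Ifitm1, AC163354.1 and Rhoq. A cluster of 180 cells was led by S1pr1, Klf3, Gm2682 and Tcf7, genes of which S1pr1 directs exit from tissue and Tcf7 marks less differentiated T cells. A cluster of 131 cells was led by Ccl1, Nrgn, Rgs16, Egr3 and Tnf.

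Smaller clusters held 91 cells (Hdc, Il1rl1, Pparg), 69 cells (the interferon-induced Ifit3, Ifit1 and Usp18), 38 cells (Gzmb, Il10, Ccl4) and 24 cells (Lyz2, H2-Eb1, Cd74). The last of these is led by genes of antigen-presenting myeloid cells. Its cells stayed in the main tests, sums and figures and were left out only in alternatives given at the end. The Ccl1 and Egr3 cluster had the highest levels of the ligands: Tnfsf11 was at 321 CPM, Csf2 at 174 CPM, Il21 at 140 CPM and Ifng at 778 CPM in it. Its cells were 67 and 38 (19.4% and 15.3%) of the DKO CD4 cells, against 15 and 11 (6.36% and 5.31%) of the control CD4 cells. Egr3, which defines it, differed between the groups itself, so these shares are given as the origin of its cells and not as a comparison. A clustering chosen after seeing the data left out the 1120 genes at an unadjusted p under 0.05 between these same groups. It lacks the genes by which the groups differed, so it cannot show whether the shares of the Ccl1 and Egr3 cluster differed. In it 53 of the 131 cells, the most in any 1 cluster, fell in a cluster of 247 cells led by Tg, Cd200 and Tnfsf8. That cluster held 27.5% and 17.7% of the DKO CD4 cells, against 27.5% and 20.8% of the control CD4 cells. In the S1pr1 cluster Tnfsf11 was at 52.6 CPM and Csf2 had 0 UMIs. Gata3, the Th2 factor, was at 1218 CPM in the Hdc and Il1rl1 cluster and between 119 and 342 CPM in the others.

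How the abundance of the cells compared between the tumours was asked first. CD4 cells were 17.4% and 17.8% of Cd3-positive cells in DKO tumours, against 14.4% and 16.6% in control tumours, a mean of 17.6% ± 0.291 in DKO and 15.5% ± 1.54 in control (SD, n = 2 each). The DKO libraries both lay above the control ones, but the log2 ratio was 0.18 ± 0.31 (SE) with an edgeR adjusted p of 0.616 over 10 T cell gates, and the difference did not pass. Of all cells passing the filter they were 5.27% and 5.12% in DKO, against 2.85% and 2.59% in control, a log2 ratio of 0.93 ± 0.23 with an edgeR adjusted p of 0.0250. A two-sided exact permutation test gave 0.333 for either share, the smallest value that 2 libraries against 2 allow. The log2 ratio of all-cell shares was 1.02 for CD8 T cells (edgeR adjusted p 0.0986) and 1.08 for cycling T cells (edgeR adjusted p 0.0250). In sorted CD45+ cells a share moves with the number of other leukocytes, and the 2 denominators gave different answers.

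Across 8278 genes tested in the CD4 cells with edgeR's quasi-likelihood test, 50 (0.604%) passed an adjusted p of 0.05: 15 higher in DKO (0.181%) and 35 lower (0.423%). At an unadjusted p under 0.05 there were 490 higher genes (5.92%) and 630 lower genes (7.61%), and the median log2 change of all genes was 0.00. The libraries of the groups did not overlap for 45.4% of genes, 27.2% with DKO above and 18.2% with DKO below. The genes that rose included the transcription factors Nr4a1, Irf4, Egr3, Irf1, Fosl2 and Tbx21 and 1 cytokine gene, Il21. The genes that fell included the chemokine Ccl5, the inhibitory receptor Klrg1 and many genes of macrophages, and also Park7, Edf1, Ndufs5 and Commd4. Of 80 ribosomal protein genes tested, 72 had a log2 below 0 (49.6% of all genes), with a median of -0.20. At an unadjusted p under 0.05, 18 of them were lower and 0 higher (7.61% and 5.92% of all genes). There were 0 calls among them (0.604% of all genes).

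**Figure D2:**
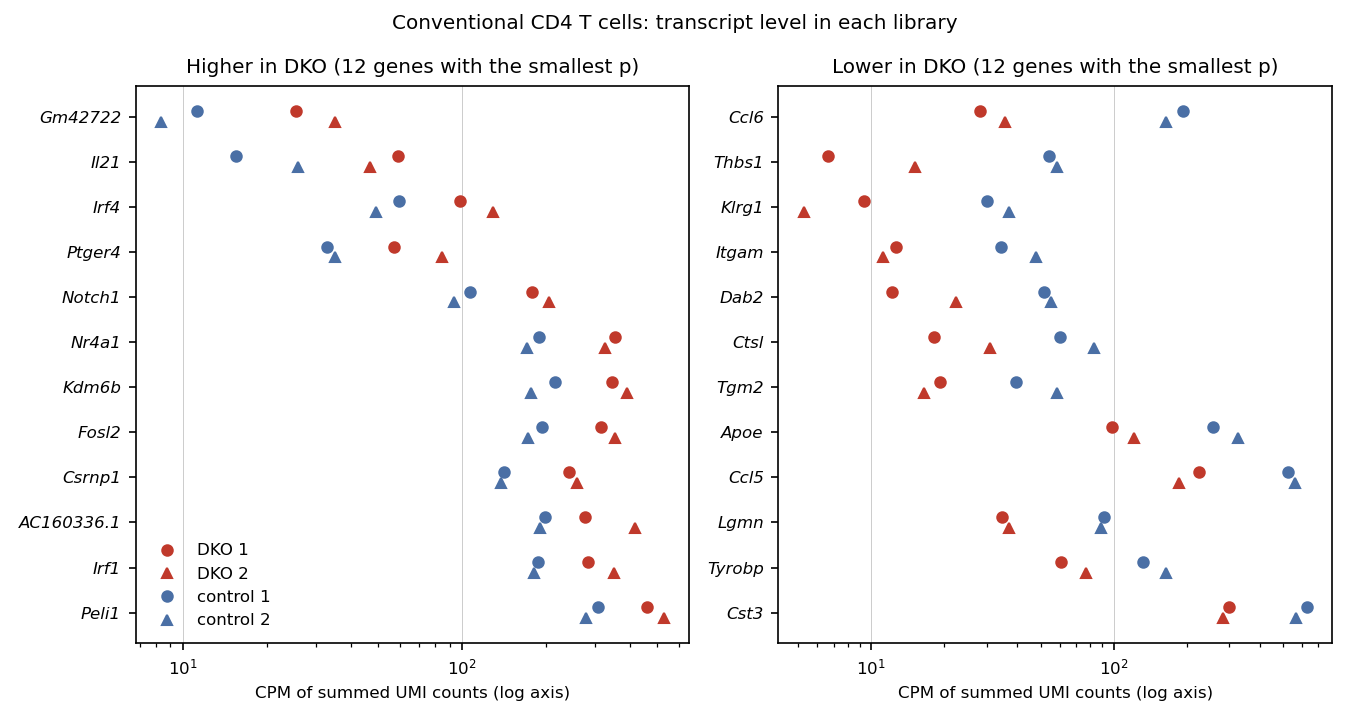
Transcript level in conventional CD4 T cells (horizontal axis, CPM, log scale) of the 12 genes with the smallest p that were higher in DKO (left panel) and the 12 that were lower (right panel), DKO libraries in red and control libraries in blue. For every gene shown the 2 libraries of a group lie on the same side of the 2 of the other group, which the choice of genes required.

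Il21, a cytokine by which CD4 T cells support B cells and CD8 T cells (ENSMUSG00000027718, chr3:37222759-37232636, GRCm38, minus strand), had 59.1 and 46.7 CPM in DKO, against 15.5 and 25.9 CPM in control. The groups did not overlap, and the gene rose by a log2 of 1.30 ± 0.27 (SE, edgeR adjusted p 0.0133). It was detected in 37 and 26 DKO cells, against 7 and 8 control cells, and the 5 richest cells held 43.9% and 52.1% of its UMIs in DKO, against 88.9% and 89.3% in control. As a share of cells this was 10.7% and 10.4% in DKO, against 2.97% and 3.86% in control, and after thinning each cell to 2000 UMIs it was 5.72% and 4.49% in DKO, against 1.77% and 3.54% in control. Among C1q-high cells without Cd3 (macrophages by their genes, at least 10 C1q UMIs), which should lack the gene, 0.132% of cells had a UMI in the first DKO library and 0 of 1676 in the second, against 0 of 3578 and 0 of 3408 in control, which allows shares of up to 0.179% in the second DKO library and 0.0838% and 0.0880% in control, at median depths of 14511 and 15470 UMIs in DKO and 11532 and 10888.5 UMIs in control. Its call was lost without the first control library (log2 0.96, edgeR adjusted p 0.0864). The Ccl1 and Egr3 cluster, in which Il21 was highest, held more of the DKO than of the control cells, as given above. In the Tg and Cd200 cluster of the clustering without the 1120 genes, Il21 had 70.1 and 134 CPM in DKO, against 29.4 and 89.0 CPM in control, and outside it 54.9 and 22.7 CPM in DKO, against 8.92 and 6.07 CPM in control. Inside it the groups overlapped and outside it they did not. It held only 53 of the 131 cells of the Ccl1 and Egr3 cluster, so this split does not set that cluster apart. The part of the clusters' shares in the difference was not tested.

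The orphan nuclear receptor Nr4a1 (ENSMUSG00000023034, chr15:101254269-101274795, GRCm38, plus strand), an early reporter of antigen receptor signals, had 354 and 325 CPM in DKO, against 188 and 170 CPM in control. Both DKO libraries lay above both control libraries, and the gene rose by a log2 of 0.86 ± 0.16 (edgeR adjusted p 0.00706). Irf4, a transcription factor whose level follows antigen receptor signal strength (ENSMUSG00000021356, chr13:30749226-30766976, GRCm38, plus strand), had 98.3 and 128 CPM in DKO, against 59.5 and 49.0 CPM in control (log2 0.99 ± 0.19, edgeR adjusted p 0.0091). Egr3 had 77.3 and 122 CPM in DKO, against 55.2 and 46.2 CPM in control (log2 0.90 ± 0.21, edgeR adjusted p 0.0499). Without the second control library the edgeR adjusted p of these genes was 0.128 for Nr4a1, 0.0760 for Irf4 and 0.183 for Egr3, and without the second DKO library that of Egr3 was 0.369.

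Nr4a1 was detected in 37.7% and 35.1% of DKO cells thinned to 2000 UMIs, against 24.3% and 20.7% of control cells. Unthinned, its share was 58.1% and 55.0% in DKO, against 42.4% and 39.6% in control. C1q-high cells also carried the gene, in 20.9% and 26.5% of thinned DKO cells, against 23.5% and 18.1% of thinned control cells. Irf4 was in 15.7% and 16.3% of thinned DKO cells, against 9.73% and 8.59% of thinned control cells, and in C1q-high cells its thinned share was between 0.778% and 3.46%.

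Other genes that rose were Notch1, a receptor of cell fate (178 and 204 CPM in DKO, against 107 and 93.3 CPM in control, log2 0.86 ± 0.17, edgeR adjusted p 0.00953), and Kdm6b, a histone H3K27 demethylase (343 and 390 CPM in DKO, against 216 and 177 CPM in control, log2 0.84 ± 0.17, edgeR adjusted p 0.0101). Fosl2, an AP-1 subunit, had 315 and 353 CPM in DKO, against 193 and 172 CPM in control. Tbx21, which encodes T-bet, the Th1 factor, had 93.9 and 96.8 CPM in DKO, against 59.5 and 44.4 CPM in control (log2 0.81 ± 0.20, edgeR adjusted p 0.0499). Irf1, the prostaglandin E2 receptor gene Ptger4, Csrnp1, Peli1, Ttc39b, Gm42722 and AC160336.1 completed the 15, with log2 changes between 0.69 and 1.54.

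All 15 kept their direction in the 15 alternatives tried, with log2 changes between 0.48 and 1.93, but their calls did not all hold. Without the second control library 2 of the 15 were still called, without the first control library 8, without the second DKO library 9 and without the first DKO library 15. With Scrublet doublets removed, or with only cells free of C1q UMIs kept, 0 of the 15 were called. The 2 settings left unlike numbers of cells. Doublet removal kept 339 and 244 DKO cells, against 230 and 197 control cells. Cells free of C1q UMIs were only 193 and 135 in DKO, against 111 and 106 in control.

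Of the 23 genes listed as an early response to antigen, all were tested, 3 were called higher and 0 lower, against 0.181% and 0.423% of all genes. Their median log2 change was 0.44, against 0.00 for all genes, and 20 were above 0 and 3 below (50.4% and 49.6% of all genes). At an unadjusted p under 0.05, 12 were higher and 0 lower (5.92% and 7.61% of all genes). Those 12 included Bhlhe40, which regulates cytokine output (1375 and 984 CPM in DKO, against 760.5 and 649.7 CPM in control, log2 0.69 ± 0.17, edgeR adjusted p 0.0754). They also included Egr1 (435 and 606 CPM in DKO, against 372 and 306 CPM in control, log2 0.55 ± 0.17) and Nr4a3 (232 and 273 CPM in DKO, against 192 and 141 CPM in control). Without the second DKO library the edgeR call of Bhlhe40 was gained, at a log2 of 0.93, and without the first DKO library those of Egr1 (log2 0.74) and Nr4a3 (log2 0.61) were gained.

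The 25 genes of antigen receptor signalling, all tested, had a median log2 change of 0.06 with 0 calls (0.604% of all genes). Zap70, the kinase next to the receptor, had 466 and 404 CPM in DKO, against 298 and 332 CPM in control, with a log2 of 0.40 ± 0.17 and an edgeR adjusted p of 0.284.

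The dissociation stress list, which shares immediate early genes with an antigen response, moved with the group as well. Its 24 genes, all tested and all detected in every library, summed to 19581 and 21625 CPM in DKO CD4 cells, against 16850 and 15233 CPM in control CD4 cells. Its median log2 change was 0.29, with 8 genes higher and 0 lower at an unadjusted p under 0.05 (5.92% and 7.61% of all genes) and 0 calls (0.604% of all genes). Junb, an AP-1 subunit, had 4171 and 4468 CPM in DKO, against 3178 and 2476 CPM in control (log2 0.55), and was called without the first DKO library (log2 0.57) or the second (log2 0.53). Zfp36 had 277 and 496 CPM in DKO, against 195 and 128 CPM in control. Its log2 change of 1.18 was larger than that of Junb but was not called over the 4 libraries. With 1 library left out it was between 0.74 and 1.52. The part of dissociation in the early response genes was not tested.

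**Figure D3:**
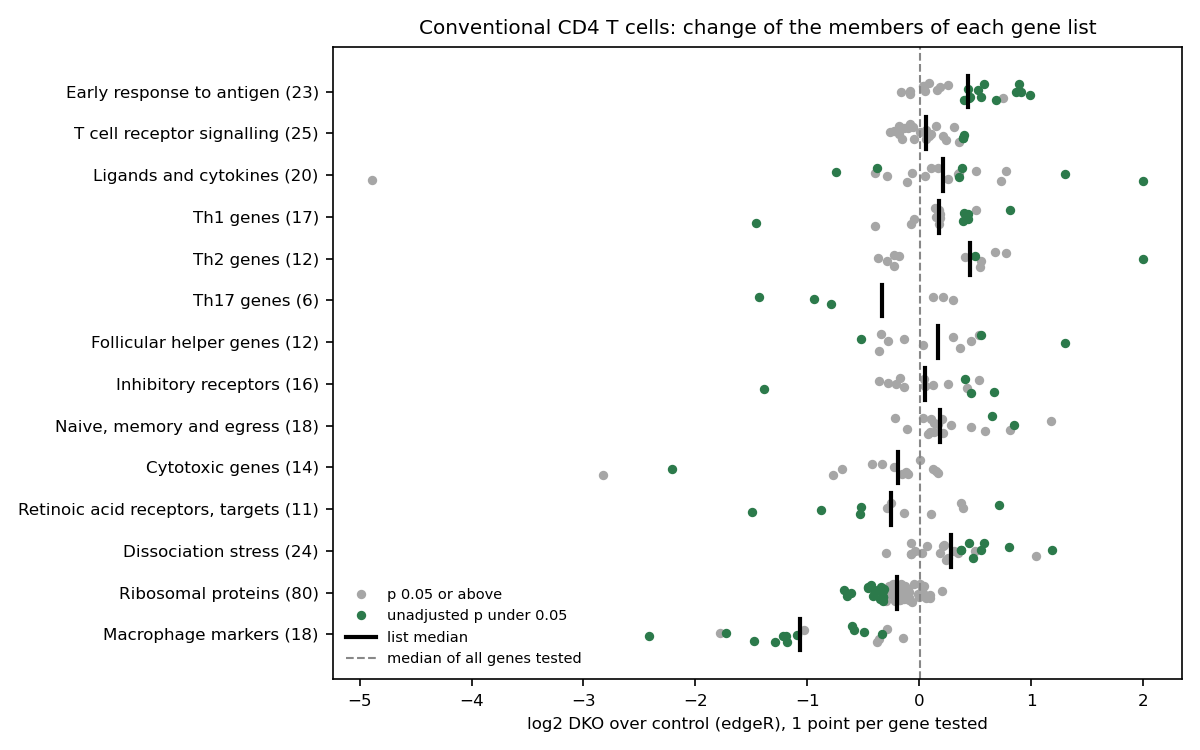
Change of each tested member of 14 gene lists in conventional CD4 T cells (horizontal axis, log2 DKO over control; number of tested genes in parentheses), green where the unadjusted p was under 0.05, with the list median as a bar and the median of all genes as a dashed line. The early response list sits to the right at a median of 0.44 and the macrophage markers to the left at -1.06.

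Of the 24 ligands and cytokines, 20 were tested and 1, Il21, was called higher (0.181% of all genes). Tnfsf11 (ENSMUSG00000022015, chr14:78277445-78308043, GRCm38, minus strand) had 194 and 155 CPM in DKO, against 138 and 126 CPM in control. Both DKO libraries lay above both control libraries, but the log2 change of 0.34 ± 0.17 had an edgeR adjusted p of 0.385 and did not pass. RANKL transcript was found in 144 and 95 DKO cells, against 80 and 67 control cells.

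As a share, Tnfsf11 was in 41.6% and 38.2% of DKO CD4 cells, against 33.9% and 32.4% of control CD4 cells, and after thinning in 23.8% and 22.4% of DKO cells, against 19.5% and 17.2% of control cells. C1q-high cells had it in 0.397% and 0.656% of DKO cells, against 0.224% and 0.176% of control cells, at more than the depth of the T cells. The thinned share in CD8 T cells was 2.56% and 2.62% in DKO, against 1.34% and 2.18% in control.

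Csf2 (ENSMUSG00000018916, chr11:54247271-54249667, GRCm38, minus strand) had 43.1 and 46.7 CPM in DKO, against 48.3 and 23.1 CPM in control. The groups overlapped, and the log2 change was 0.26 ± 0.26 with an edgeR adjusted p of 0.746. It came from 31 and 17 DKO cells, against 13 and 12 control cells, and the 5 richest cells held 47.4% and 77.5% of the UMIs in DKO, against 85.7% and 72.0% in control. Of the cells with Csf2, 24 and 14 in DKO, against 8 and 5 in control, also had Tnfsf11. Without the second control library the log2 change was -0.15.

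Cd40lg had 101 and 140 CPM in DKO, against 120 and 101 CPM in control, and the groups overlapped (log2 0.05). Without the second DKO library its log2 change was -0.16, and without the second control library it was -0.05. Ifng, the Th1 cytokine, had 454 and 251 CPM in DKO, against 214 and 264 CPM in control, which overlapped (log2 0.51 ± 0.34, edgeR adjusted p 0.615). Without the first DKO library its log2 change was -0.02, and without the second DKO library it was 0.89 and was called. Csf1, which maintains macrophages, had 279 and 282 CPM in DKO, against 222 and 190 CPM in control (log2 0.38, edgeR adjusted p 0.302).

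Il10, which restrains myeloid cells, had 44.7 and 92.8 CPM in DKO, against 12.1 and 20.3 CPM in control (log2 2.00 ± 0.46, edgeR adjusted p 0.157), and 78 of its 141 UMIs in the second DKO library were in 1 cell. It was called with any 1 of the 4 libraries left out, at log2 changes between 1.44 and 2.44. Il2, the T cell growth factor, had 3.86 and 2.63 CPM in DKO, against 158 and 34.2 CPM in control (log2 -4.89 ± 1.47, edgeR adjusted p 0.417), and 170 of its 183 UMIs in the first control library were in 1 cell. It was called without the first control library (log2 -3.42) or the second (log2 -5.58). These values therefore describe a few cells and not the class.

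The promoters of Tnfsf11, Il21 and Nr4a1 are shown because the first marks the class and the other 2 rose with the early response. Each is the 250 bases before the transcript start that RefSeq gives on GRCm38.p6, written 5′ to 3′ on the gene's strand with matches to the core motif of NFAT, the calcium-dependent factor of the antigen receptor, in capitals (GGAAA, or TTTCC on the other strand).
Tnfsf11: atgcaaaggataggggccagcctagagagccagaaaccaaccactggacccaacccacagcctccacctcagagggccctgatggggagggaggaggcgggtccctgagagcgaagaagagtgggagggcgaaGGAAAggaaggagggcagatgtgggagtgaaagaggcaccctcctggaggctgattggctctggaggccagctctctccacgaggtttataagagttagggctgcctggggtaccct
Il21: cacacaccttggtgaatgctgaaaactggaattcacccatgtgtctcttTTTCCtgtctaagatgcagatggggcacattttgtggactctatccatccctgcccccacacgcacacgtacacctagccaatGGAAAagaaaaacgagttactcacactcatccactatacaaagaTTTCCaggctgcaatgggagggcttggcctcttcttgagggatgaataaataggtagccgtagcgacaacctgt
Nr4a1: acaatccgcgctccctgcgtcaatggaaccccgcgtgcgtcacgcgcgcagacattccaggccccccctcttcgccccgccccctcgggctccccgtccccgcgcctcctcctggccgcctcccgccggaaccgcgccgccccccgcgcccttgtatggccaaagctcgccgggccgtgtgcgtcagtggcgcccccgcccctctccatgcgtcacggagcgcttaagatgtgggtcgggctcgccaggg
The first lies at chr14:78308044-78308293, the second at chr3:37232637-37232886 and the third at chr15:101266596-101266845. The RefSeq start used for Nr4a1 lies inside the GENCODE gene span given above, well after its first base, and the RefSeq start used for Csf2 lies upstream of the GENCODE one. Tnfsf11 had 1 match, Il21 had 3, Nr4a1 had 0, and the Csf2 promoter had 2. None of these 4 windows held the AP-1 motif TGANTCA or the retinoid receptor motif AGGTCA, both strands searched. Over 32851 promoters of the same length, 55.57% held the NFAT core, 6.749% the AP-1 motif and 14.02% the retinoid receptor motif, so a match with GGAAA is common, and a match is not a binding site. The motifs did not overlap one another in these windows.

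Of 17 Th1 genes, all tested, Tbx21 rose and Ccl5 fell, where 0.181% of all genes were called higher and 0.423% lower. Of the same 17 genes 13 had a log2 above 0, against 50.4% of all genes, and the median was 0.18, against 0.00. Ccl5, a chemokine of effector T cells and NK cells (ENSMUSG00000035042, chr11:83525778-83530518, GRCm38, minus strand), had 226 and 186 CPM in DKO, against 523 and 563 CPM in control. The DKO libraries lay far below the control ones, and the gene fell by 1.46 on the log2 scale (SE 0.17, edgeR adjusted p 1.22e-05). It was found in 70 and 50 DKO cells, against 53 and 60 control cells, and the 5 richest cells held 44.5% and 43.3% of the UMIs in DKO, against 55.4% and 65.8% in control.

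Klrg1, an inhibitory receptor of terminal effector cells (ENSMUSG00000030114, chr6:122270596-122282882, GRCm38, minus strand), had 9.39 and 5.27 CPM in DKO, against 30.2 and 37.0 CPM in control. It fell by 2.21 on the log2 scale (SE 0.35, edgeR adjusted p 0.000691), and it was found in 14 and 7 DKO cells, against 19 and 18 control cells. Both genes were among the leading genes of the Gzmb cluster, whose leading genes also include Gzmb, Il10 and Ikzf2, on the regulatory T cell list with Klrg1 itself. Of its 38 cells 7 and 5 came from the DKO libraries (2.02% and 2.01% of their CD4 cells), against 6 and 20 from the control libraries (2.54% and 9.66%), so the second control library gave most of them. In the clustering without the 1120 genes all 38 fell in a cluster of 303 cells, and outside that cluster Ccl5 had 123 and 206 CPM in DKO, against 561 and 254 CPM in control, and Klrg1 8.29 and 4.39 CPM in DKO, against 18.1 and 12.9 CPM in control. The part of these cells in the lower levels was not tested. Cd7 had 13.8 and 17.8 CPM in DKO, against 38.8 and 38.8 CPM in control (log2 -1.37 ± 0.27, edgeR adjusted p 0.0101), and Cd52, a surface protein of lymphocytes, had 2922 and 2434 CPM in DKO, against 3892 and 4373 CPM in control (log2 -0.69, edgeR adjusted p 0.0362). The edgeR adjusted p of Cd52 was 0.579 without the second control library, 0.0588 without the first and 0.0548 without the second DKO library.

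Of 13 Th2 genes 12 were tested with 0 calls (0.604% of all genes). Maf had 711 and 540 CPM in DKO, against 421 and 431 CPM in control (log2 0.50, edgeR adjusted p 0.201). Its log2 change was 0.71 without the second DKO library. Of 15 Th17 genes only 6 were tested, with 0 calls and 3 lower at an unadjusted p under 0.05 (7.61% of all genes), among them the leukotriene receptor Ltb4r1 (47.5 and 53.3 CPM in DKO, against 73.3 and 93.3 CPM in control, edgeR adjusted p 0.0655). It was called without the second DKO library (log2 -0.84) or the first control library (log2 -0.97). Of 15 follicular helper genes 12 were tested, and 1, Il21, was called higher (0.181% of all genes). Icos, a costimulatory receptor of helper cells, had 1184 and 939 CPM in DKO, against 685 and 705 CPM in control (log2 0.55 ± 0.16, edgeR adjusted p 0.121), and it was called without the second DKO library at a log2 of 0.74.

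Of 17 inhibitory receptor genes 16 were tested with 0 calls (0.604% of all genes) and a median of 0.05. Lag3 had 339 and 309 CPM in DKO, against 225 and 166 CPM in control (log2 0.67 ± 0.17, edgeR adjusted p 0.0733), and Ctla4 had 725 and 634 CPM in DKO, against 519 and 426 CPM in control (log2 0.46, edgeR adjusted p 0.220). Pdcd1, which encodes PD-1, had 135 and 129 CPM in DKO, against 164 and 144 CPM in control (log2 -0.28). Of 20 naive and memory genes 18 were tested with 0 calls (0.604% of all genes), and 16 had a log2 above 0 (50.4% of all genes). Satb1, a chromatin organiser of T cells, had 706 and 643 CPM in DKO, against 475 and 349 CPM in control (edgeR adjusted p 0.0767). Without the second DKO library Lag3 (log2 0.76) and Satb1 (log2 0.75) were called, as they were without the first control library (log2 0.88 and 0.87).

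Of 24 retinoic acid receptors and targets, 11 were tested and 1 was called lower (0.423% of all genes). Their median log2 change was -0.25. Tgm2, a transglutaminase induced by retinoic acid, had 19.3 and 16.5 CPM in DKO, against 39.7 and 58.2 CPM in control (log2 -1.5 ± 0.27, edgeR adjusted p 0.00336). Its edgeR adjusted p was 0.117 without the second control library. Tgm2 averaged 680 CPM in C1q-high cells and 33.4 CPM in CD4 cells, a ratio of 20.3, and the part of macrophage RNA in its difference was not tested. Rara, a retinoic acid receptor, had 35.3 and 48.1 CPM in DKO, against 19.0 and 29.6 CPM in control (log2 0.71 ± 0.27, edgeR adjusted p 0.248). Itga4, the alpha4 integrin subunit used in gut homing, had 87.2 and 138 CPM in DKO, against 149 and 158 CPM in control, and Dhrs3, a retinaldehyde reductase, had 9.94 and 9.22 CPM in DKO, against 15.5 and 18.5 CPM in control. Itga4 had an edgeR adjusted p of 0.229 and Dhrs3 one of 0.316, and Itga4 was called without the second DKO library at a log2 of -0.85.

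Macrophage transcripts moved with the group in these cells. All 18 macrophage markers had a log2 below 0 (49.6% of all genes), with a median of -1.06. Of them 3 were called lower (0.423% of all genes), and 12 were lower at an unadjusted p under 0.05 (7.61% of all genes). The 18 markers, none at 0 in any library, summed to 1746 and 2122 CPM in DKO CD4 cells, against 3073 and 3251 CPM in control CD4 cells. The same sum was 1227 and 1150 CPM in DKO CD8 T cells, against 1764 and 1701 CPM in control CD8 T cells, and 2245 and 4817 CPM in DKO Foxp3+ cells, against 5656 and 7097 CPM in control Foxp3+ cells. Lyz2, the lysozyme of myeloid cells, had a UMI in 7.23% and 8.16% of thinned DKO CD4 cells, against 21.2% and 26.3% of thinned control CD4 cells. Its 5 richest cells held 61.1% and 84.8% of its UMIs in DKO, against 67.2% and 74.8% in control. The 24 cells of the Lyz2 cluster had it at 4006 CPM, against 67.4 CPM in the other clusters. They were 5 and 5 DKO cells, against 5 and 9 control cells, and their part in the marker sums was not tested.

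Of the 35 genes that fell in CD4 cells, 29 had a higher level in C1q-high cells without Cd3 than in the CD4 cells, 24 of them at least 5 times higher. Of the 15 that rose, 0 did. The same counts were not made over all genes tested, so these describe the called genes without a background. Ccl6, a myeloid chemokine, had 28.2 and 35.5 CPM in DKO CD4 cells, against 194 and 164 CPM in control CD4 cells (log2 -2.56 ± 0.19, edgeR adjusted p 1.14e-09). Apoe, the lipid carrier of macrophages, had 98.3 and 121 CPM in DKO, against 257 and 326 CPM in control (log2 -1.48 ± 0.18, edgeR adjusted p 1.22e-05). The part of macrophage RNA in these differences was not tested. Markers of CD8 T cells (8 genes, 2 at 0 in all libraries) summed to 463 and 413 CPM in DKO, against 717 and 714 CPM in control. Ccl5 is 1 of them and had 226 and 186 CPM of these sums in DKO, against 523 and 563 CPM in control. Of the 4 CD8 markers tested, 2 had a log2 above 0 and 2 below (50.4% and 49.6% of all genes). The sum thus follows Ccl5 and does not show a fall of CD8 markers as a set. Markers of NK cells (13 genes) summed to 282 and 404 CPM in DKO, against 354 and 545 CPM in control.

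**Figure D4:**
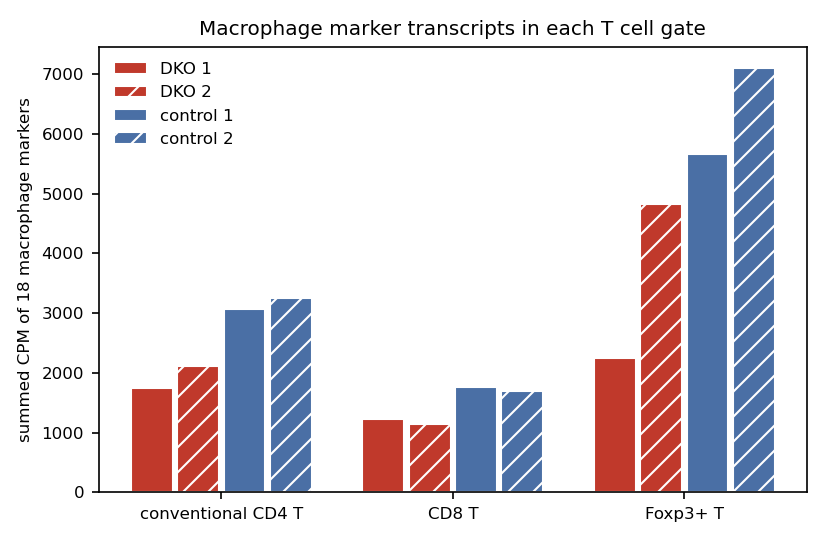
Summed level of 18 macrophage marker genes (vertical axis, CPM, from 0) in the conventional CD4, CD8 and Foxp3+ T cell gates, 1 bar per library, DKO in red before control in blue, the second library of each group hatched. In each gate both DKO bars are lower than both control bars.

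Whether the CD4 cells changed differently from other T cells was tested with a class-by-group term and the library as a block. Against CD8 T cells, 59 of 9175 genes (0.643%) differed in their change, 32 with the CD4 change above (0.349%) and 27 below (0.294%). Against Foxp3+ cells it was 9 of 8412 genes (0.107%), 1 above (0.0119%) and 8 below (0.0951%). The 2 comparisons share the CD4 cells.

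Of the 15 genes that rose in CD4 cells, 1, Irf1, was called in the test against CD8 T cells. The difference of log2 changes, CD4 minus CD8, was 0.10 ± 0.15 for Nr4a1 (edgeR adjusted p 0.989) and -0.02 ± 0.21 for Irf4 (edgeR adjusted p 0.994), whose own log2 changes in CD8 T cells were 0.77 and 1.00. Irf1 was called, with a log2 of 0.72 in CD4 cells, 0.15 in CD8 T cells and a difference of 0.57 (edgeR adjusted p 0.0137). Egr1 was called as well, with a log2 of 0.55 in CD4 cells and -0.03 in CD8 T cells. The difference was called in only 3 of 7 alternatives for Irf1 and 4 of 7 for Egr1. Fos (0.74), Zfp36 (0.87) and Klf2 (0.86) also had a CD4 change above that of CD8 T cells, each called in 7 of 7. Junb (0.35) was called in 0 of 7. For Tbx21 the difference was 0.70 (edgeR adjusted p 0.0946) and for Tnfsf11 it was -0.28 ± 0.29 (edgeR adjusted p 0.971). Against Foxp3+ cells none of the 15 genes was called. The difference there was 0.49 ± 0.25 for Nr4a1 (edgeR adjusted p 0.925) and 0.52 ± 0.28 for Irf4 (edgeR adjusted p 0.972). Nr4a1 had 212 and 348 CPM in DKO Foxp3+ cells, against 230 and 184 CPM in control Foxp3+ cells, and these groups overlapped.

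The chemokine Ccl5 had the smallest p against CD8 T cells. Its level in CD8 T cells was 4097 and 3032 CPM in DKO, against 3109 and 4507 CPM in control, with overlapping groups, and the difference of log2 changes was -1.29 ± 0.11 (edgeR adjusted p 1.63e-27). The p of Ccl5 rests on a spread pooled over genes. Klrg1 differed against both CD8 (-2.02) and Foxp3+ cells (-2.01). Ifng differed in opposite directions, by 0.91 against CD8 T cells and by -1.46 against Foxp3+ cells, where it had 158 and 67.5 CPM in DKO and 28.7 and 21.1 CPM in control. In CD8 T cells Ifng had 542 and 302 CPM in DKO, against 501 and 547 CPM in control.

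Gzmd and Gzme, granzymes of activated cytotoxic cells, had the largest positive differences against CD8 T cells (3.92 and 3.98). Gzmd had 35.3 and 103 CPM in DKO CD4 cells, against 4.31 and 30.5 CPM in control CD4 cells, and these groups did not overlap. In the second DKO library 155 of its 157 UMIs were in 5 cells.

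**Figure D5:**
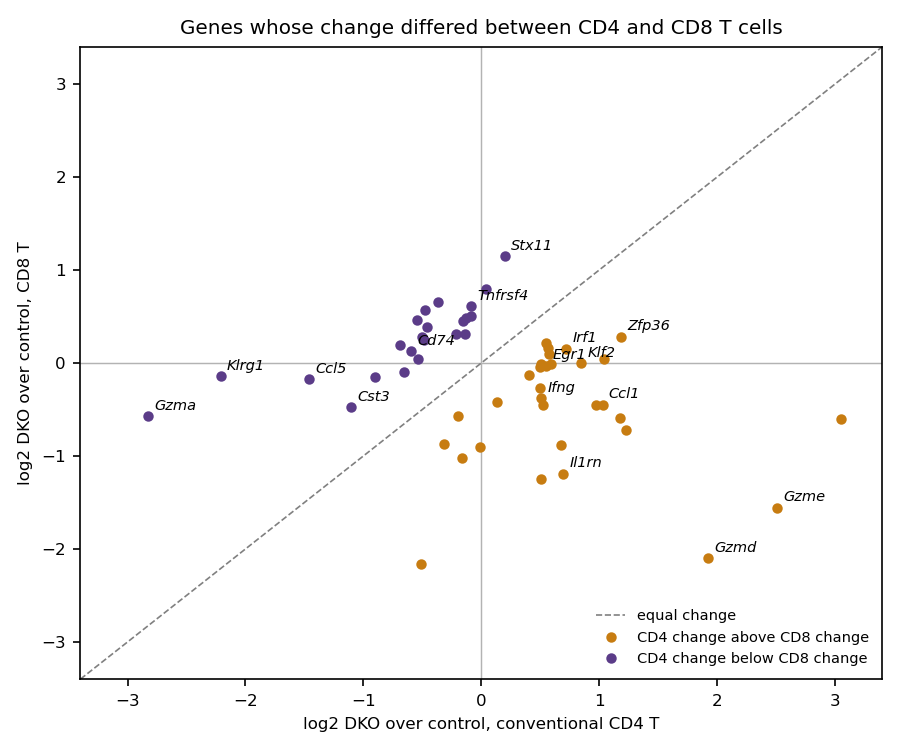
Log2 DKO over control in conventional CD4 T cells (horizontal axis) and in CD8 T cells (vertical axis) for 54 genes called different between the 2 gates and fitted in both, orange where the CD4 change lay above the CD8 change and purple where it lay below; the dashed line marks equal change. Ccl5 lies at -1.46 in CD4 cells, and Irf1 at 0.72 in CD4 cells and 0.15 in CD8 T cells.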

How the data were processed

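The authors deposited matrices of UMI counts, whole numbers for each gene in each barcode. Per the submitters' processing notes, Cell Ranger and Seurat 3.1.0 in R 3.6.0 were used and the builds GRCh38 and mm10 named. Version 3.1.0 of the matrix software wrote the deposited matrices, per the file headers. Library totals were 71381613 and 57458026 UMIs in DKO, against 80032966 and 74878771 in control. The members and gene lists were chosen with earlier results of these data known.

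Counts of the gated cells were summed per library and tested with edgeR 4.0.16 (R 4.3.3; filterByExpr, TMM, robust quasi-likelihood F test, Benjamini-Hochberg adjustment, 0.05), on 2 against 2 libraries with no covariate. The SE was the log2 change divided by the square root of F. Class-by-group terms used both gates with the library as block. Shares were tested in edgeR over 10 disjoint gates of Cd3-positive cells. Intervals and floors cover counting error only. Cells were clustered with scanpy 1.11.5 (1000 variable genes, 20 components, 15 neighbours, Leiden resolution 0.6), and once more without genes at an unadjusted p under 0.05. Doublets were kept; as an alternative the highest Scrublet scores (0.8% per 1000 barcodes), which fell on 7 and 5 DKO and 6 and 10 control CD4 cells, were removed. Libraries shared between 20 and 38 barcodes, 0 of them between CD4 cells. Named genes needed at least 30 CPM in the higher group and groups apart (12 with the smallest p in each direction), or belonged to the gate or to a list (p under 0.05, the 4 smallest p or the 4 highest levels); for class-by-group terms every call was eligible. Il21 and Nr4a1 promoters, and genes named for their UMIs in few cells, were chosen after their values were seen. The fits were tested on simulated data. Coordinates came from GENCODE vM21.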

Additional observations from a re-analysis of the deposited data

Results flagged for a closer look

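The genes below had a log2 DKO over control that differed between conventional CD4 T cells and another T cell gate, by edgeR's class-by-group term at an adjusted p under 0.05. The value is the difference of the log2 changes, CD4 minus the other gate. The change lay above that of CD8 T cells for Gzme (3.98), Gzmd (3.92), Gm26870 (3.62), Il1rn (1.98), Klre1 (1.98), Slc37a1 (1.96), Gm26802 (1.62), Gadd45g (1.60), Il6ra (1.59), Wfdc17 (1.51), Irs2 (1.36), Ccl1 (1.22), Hspa1a (1.13), Zbtb20 (0.95), Ifng (0.91), Cebpb (0.89), Ier3 (0.89), Zfp36 (0.87), Klf2 (0.86), Fos (0.74), Ifitm3 (0.62), Arl4c (0.61), Irf1 (0.57), Egr1 (0.56), Ier5 (0.55), Malt1 (0.55), Il7r (0.53), Arid5a (0.53), Nfkbiz (0.48), Vps37b (0.42), S100a4 (0.40), Junb (0.35). It lay below that of CD8 T cells for Il2 (-7.33), Cd209a (-4.61), Pclaf (-3.33), Gzma (-2.13), Klrg1 (-2.02), Myb (-1.96), Ccl5 (-1.29), Tox (-1.09), Ramp3 (-1.02), Itgav (-0.98), Stx11 (-0.93), Ikzf3 (-0.87), H2-Eb1 (-0.83), Clptm1l (-0.81), H2-Ab1 (-0.77), Eea1 (-0.77), Cd74 (-0.71), Gimap7 (-0.71), Tnfrsf4 (-0.66), Cst3 (-0.61), Nrip1 (-0.61), Camk4 (-0.60), Tnfrsf9 (-0.57), Bcl2a1b (-0.56), Plac8 (-0.55), Ybx3 (-0.52), Sh2d2a (-0.45). The change lay above that of Foxp3+ T cells for Zfp36 (0.86). It lay below that of Foxp3+ T cells for Xcl1 (-7.23), Retnla (-4.52), Ccl24 (-2.05), Klrg1 (-2.01), Dab2 (-1.76), Ifng (-1.46), Cxcr6 (-1.22), Cst3 (-0.88).

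Genes held by few cells stood among these. Il2 had 170 of 183 UMIs of the first control library in 1 CD4 cell, and Retnla had 308 of 320. Gzma had 282 of 331 UMIs of the second control library in 5 CD4 cells. In the second DKO library 5 CD4 cells held 155 of 157 Gzmd UMIs, 131 of 145 Gzme UMIs and 631 of 861 Ccl1 UMIs. S100a4, Junb and Vps37b were called in 0 of 7 alternatives, and Ccl5, Gzma, Gzmd, Gzme, Ifng, Fos, Klf2 and Zfp36 in 7 of 7 against CD8 T cells.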

How the results depend on the processing

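Which genes passed depended on the cells kept. Against 50 called genes, edgeR called 204 with no filter on low counts, 88 with at most 5% mitochondrial UMIs, 22 with at least 2 Cd4 UMIs, 1 with no C1q UMI, 3 with Scrublet doublets removed and 24 with the DESeq2 test. Alternatives chosen after seeing the data left out the 24 cells of the Lyz2 cluster (14 called) or also the Gzmb cluster (17 called). Leaving out 1 library gave 50 to 320 calls: 320 without the first DKO library, 113 without the second, 166 without the first control library and 50 without the second. The difference between the 2 DKO replicates had a correlation of -0.13 with that between the 2 control replicates, over 8278 genes. That cannot show whether replicates of the same number were processed together. The replicate block gave 81 calls and the crossed replicate block, a pairing also chosen after seeing the data, 596. DESeq2 size factors gave 45. Against CD8 T cells (59) there were 37 calls with doublets removed and 36 to 59 with 1 library left out (38 without the first control library, 36 without the second). Against Foxp3+ cells (9) there were 23 with no filter, 5 with doublets removed and 13 to 26 with 1 library left out (26 without the first DKO library, 17 without the first control library). The log2 share was 0.93 with all cells as denominator, past the threshold. Among Cd3-positive cells it was 0.18, and 0.085 to 0.29 with 1 library left out. The share of all cells was not refitted with a library left out. The cause of the differences between settings was not tested.

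Directions mostly held. List medians turned sign without the second DKO library for ligands (-0.013), Th2 (-0.20) and follicular helper genes (-0.12), without the second control library for follicular helper (-0.06) and cytotoxic genes (0.093), without the first DKO library for inhibitory receptors (-0.0033) and without the first control library for inhibitory receptors (-0.0080) and receptor signalling (-0.0055). Single genes turned sign as follows: Csf2 without the second control library (-0.15), Cd40lg without the second DKO (-0.16) or control (-0.045) library, with at least 2 Cd4 UMIs (-0.020) and without both clusters (-0.054), Ifng without the first DKO library (-0.025), Cd74 with no C1q UMI (0.14) or doublets removed (0.37), and Cfp with doublets removed (0.14) and without the Lyz2 cluster (0.22) or both clusters (0.26). With 1 library left out the values reached 0.37 for ligands, 0.56 for Th2, 0.39 for follicular helper, 0.21 for inhibitory receptor and 0.093 for receptor signalling genes, -0.53 for cytotoxic genes, 0.87 for Csf2, 0.25 for Cd40lg, 0.89 for Ifng, -7.99 for Cd209a and 1.82 for Hspa1a. Class-by-group terms turned for H2-Ab1 (0.23) and H2-Eb1 (0.15) with doublets removed, Cd209a without the first control library (3.86) and Hspa1a without the second (-0.32). Of 1020 gene values under alternatives 730 kept direction and side of the threshold, 182 lost the call, 97 gained it and 11 turned. Of the 35 genes that fell, between 28 and 35 were tested in each alternative; with no C1q UMI 0 of 28 were still called, and with doublets removed 3 of 33. The CD4 depth of 1082084 to 1811316 UMIs limits genes under about 3 CPM.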
